A study of Mus musculus with 5 samples.

Results

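Bcl2 family survival and death genes were followed here as 10 named members of 20016 named genes on a mouse microarray. They were chosen by name: Bcl2, Bcl2l1 and Mcl1 among the survival members, Bcl2l11, Bbc3, Pmaip1, Bid and Bmf among the BH3-only members, and Bax and Bak1 as the effectors. Each was found through the RefSeq accession of its probes, which gave 12 probes in all, and the brightest probe stands for the gene. The arrays profiled total RNA of mouse tumour cells grown as lines from soft tissue sarcomas, on a background that mixes ICR with C57/BL6 and 129 strains. The tumours and lines carry a doxycycline-inducible allele of EWS/ATF1, the fusion that drives clear cell sarcoma, and all groups share it. There was 1 array for each of 5 groups, taken at 3 h after control, low or high doxycycline, and at 48 h after high doxycycline or control. Not given in the sources used here are the doxycycline concentrations, what the control cultures received and which tumour line each array holds. Differences between arrays can therefore include differences between lines, and no group has a replicate.

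The family works at the outer membrane of mitochondria. Survival members bind and hold the others in check, BH3-only members sense stress and bind the survival members, and the effectors open the membrane when they are released or activated. Cytochrome c then leaves the mitochondria and caspases are activated. The balance between survival and BH3-only members is a well known target in tumour biology, and several BH3-only genes are switched on in transcription by p53, FoxO factors or stress signalling.

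Levels are log2 intensities relative to the 75th percentile of the same array, so a level of 0 equals that percentile. All 12 member probes were well above background on all 5 arrays, with 1 spot each and none saturated. A gene is called here when it differs at least 2-fold between arrays and is above background on both. That call is a rule of size and not a test, and the only error behind a single difference is the scanner's own, about 0.204 on the log2 scale. It is an estimate by the scanner software, nearly the same for all bright probes, and not a measured spread. Each array had 111 to 146 outlier spots of 59305, and 55.5% to 60.0% of its probes were above background. Fos, the gene named in the series title, had levels of -2.22, -0.49 and 2.18 on the 3 h control, low and high dose arrays. At 48 h its level was 2.86 at high dose and -2.22 in the control.

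The 48 h high dose array stood apart from the other 4. Between it and the 48 h control, 20.0% of 13739 genes were called, with 1366 higher and 1384 lower. The comparisons that did not use it called 1.37% to 5.34% of genes. Of 11 measured proliferation genes, 10 were higher on it than on the 48 h control, with a median log2 difference of 4.72. Of 14 macrophage markers, 13 were above background on the 48 h high dose array and 7 on the 48 h control, and their summed level was 63.9 against 34.4 times the 75th percentile. A sum is weighted to the brightest markers, here Csf1r and Itgam. Csf1r had levels of 5.30 at 48 h high dose and 2.89 in the 48 h control, and Itgam 4.16 and 4.68. At 3 h control, low and high dose Csf1r had 2.55, 2.52 and 2.65, and Itgam 4.32, 4.44 and 4.41. At 3 h the summed macrophage level was 29.0, 30.1 and 28.5 for control, low and high dose, with 10, 12 and 7 markers above background. Single markers differed more than that sum: Ctss was 16.2-fold and Cd74 2.69-fold lower at 3 h high dose than in the control, and the median of the 7 measured markers was -0.47. Between the controls, Ctss was 14.8-fold lower at 48 h. Tyrobp, Lyz2, C1qa, C1qc, Laptm5, Ptprc and Aif1 were not above background on the 3 h high dose and 48 h control arrays. The other 7 macrophage markers, among them Csf1r, Itgam, Cd74 and Ctss, were above background there. Mesenchymal markers were above background on every array, 9 of 9, and their summed level was 239.3 on the 48 h high dose array and 375.9 on the 48 h control. All 9 had a negative difference there, with a median of -1.11, and 5 were called lower, among them Lum (12.4-fold) and Col3a1 (9.03-fold). Of 11 neural crest and melanocyte markers, 9 or 10 were above background on each array, and Dct was on none. Of the 9 measured at 48 h, Ngfr, a neural crest receptor, was 87.4-fold lower at high dose, with levels of -2.20 at high dose and 4.25 in the control, and the other 8 were under 2-fold. Results at 48 h rest on this 1 array, and the part of these differences in them was not tested.

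Promoters are shown for the BH3-only genes whose levels differed most and for which a promoter sequence was at hand, in each case 1 promoter that holds a searched motif. Each is 300 bases from RefSeq on GRCm38.p6, 250 before to 50 after the annotated start, written 5′ to 3′ on the gene's strand. RefSeq promoters matched 9 of the 10 members and gave 16 promoters. Capitals mark TGACG or its complement CGTCA, the core of the site bound by the ATF and CREB family to which ATF1 belongs, or GTAAACA, a site bound by forkhead factors.
Bmf, chr2:118549637-118549936, minus strand: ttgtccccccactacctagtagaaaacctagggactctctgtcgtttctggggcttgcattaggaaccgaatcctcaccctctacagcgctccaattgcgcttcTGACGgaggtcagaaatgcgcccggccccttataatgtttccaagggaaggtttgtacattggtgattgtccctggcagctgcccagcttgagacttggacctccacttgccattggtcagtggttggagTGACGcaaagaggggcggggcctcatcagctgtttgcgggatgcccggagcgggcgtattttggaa
Bbc3, chr7:16309333-16309632, plus strand: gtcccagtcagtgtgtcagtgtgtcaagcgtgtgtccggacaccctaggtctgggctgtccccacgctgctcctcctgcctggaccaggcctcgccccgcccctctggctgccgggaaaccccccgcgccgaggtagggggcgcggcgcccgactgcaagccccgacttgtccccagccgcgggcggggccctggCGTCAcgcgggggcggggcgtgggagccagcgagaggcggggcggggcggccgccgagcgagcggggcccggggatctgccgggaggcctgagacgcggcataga
Bcl2l11, chr2:128125788-128126087, plus strand: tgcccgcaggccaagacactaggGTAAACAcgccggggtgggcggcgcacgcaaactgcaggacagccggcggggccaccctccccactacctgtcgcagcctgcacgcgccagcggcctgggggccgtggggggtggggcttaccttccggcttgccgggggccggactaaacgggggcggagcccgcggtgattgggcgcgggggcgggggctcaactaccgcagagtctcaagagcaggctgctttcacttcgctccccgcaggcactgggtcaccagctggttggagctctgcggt
The Bmf promoter holds TGACG at bases -146 and -16 from the start, the Bbc3 promoter holds CGTCA at base -55, and the Bcl2l11 promoter holds GTAAACA at base -227. Searched on both strands, TGACG lay in 4 of the 16 member promoters, of 4 genes (Bcl2, Bmf, Mcl1 and Bbc3), and in 20.8% of 32851 promoters of the same length. The full site TGACGTCA, which contains TGACG, lay in 0 member promoters and in 1.79% of all. The AP-1 site TGANTCA, bound by Fos with Jun, lay in 0 member promoters and in 7.81% of all. GTAAACA lay in 2 member promoters, that of Bcl2l11 above and another of Bbc3, and in 3.65% of all. The median GC content was 61% in member promoters and 52.7% in all promoters. A match is a description of letters and not a bound site.

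**Figure D1:**
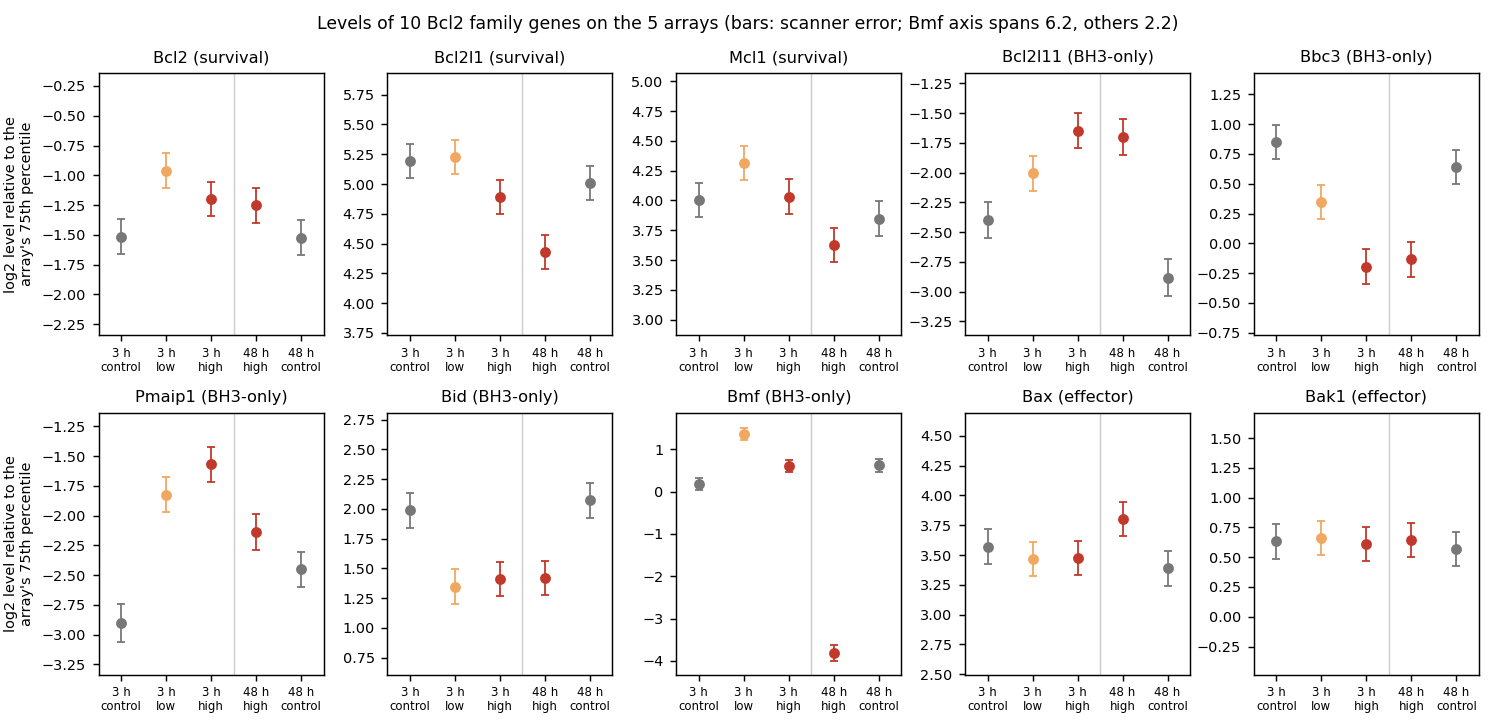
Log2 level of each member on the 5 arrays, relative to the array's 75th percentile, with bars for the scanner error. Bmf dropped to -3.81 on the 48 h high dose array, while Bak1 stayed between 0.57 and 0.66 on all 5 arrays.

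By the median of each class, the BH3-only genes spanned the widest range and the effectors the narrowest. The median span, from the lowest to the highest of the 5 arrays, was 1.23 for the 5 BH3-only genes, 0.69 for the 3 survival genes and 0.25 for the 2 effectors. Over 13472 genes above background on all arrays the median span was 0.66. Each of the 3 classes rests on few genes, and no test was made between them. Bmf had a span of 5.17, exceeded by 0.416% of genes. Pmaip1, Bcl2l11 and Bbc3 spanned 1.33, 1.23 and 1.05, while Bak1 spanned 0.088, less than 99.7% of genes. The classes overlapped, as the BH3-only gene Bid spanned 0.72 and the survival gene Bcl2l1 0.80.

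The limma fit of high dose over both times, on the 4 arrays other than low dose and with 1 residual degree of freedom, called 0 of 14601 genes at an adjusted p under 0.05. That is 0% of genes, and 506 genes, 3.47%, had an unadjusted p under 0.05. Bbc3 was the only member among these, with a fitted log2 difference of -0.91 (SE 0.276, unadjusted p = 0.0301, adjusted p = 0.884). Fos had a fitted difference of 4.74 (unadjusted p = 0.000124, adjusted p = 0.884). With 1 array in each group, the residual of this fit is the disagreement between the high dose differences at 3 h and 48 h. Its SEs and p-values therefore hold no spread between replicates.

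Bmf, whose protein is held by dynein light chain and binds survival proteins once released, was the member that differed most. Its levels were 0.19, 1.36 and 0.60 on the 3 h control, low and high dose arrays. At 48 h its level was -3.81 at high dose and 0.62 in the control. The 48 h high dose array is the only low one, and the other 4 lie within 1.17 of one another. The 48 h difference was -4.43 ± 0.24 (scanner error), or 21.6-fold lower at high dose, and it ranked 25th from the lowest of 13739 genes. The size of this fold rests on a dim signal. The processed signal of Bmf at 48 h high dose was 29.9, and the median of that array's deposited values was 23.9. With normexp background correction the 48 h difference was smaller in size, and the call held. Between the high dose arrays Bmf was 21.3-fold lower at 48 h than at 3 h, a difference of -4.41. At 3 h the low dose array was 2.25-fold above the control, a difference of 1.17, and the high dose array differed from the control by 0.42. The low dose array was thus the highest of the 5, and its gap to the next lower array, 0.74, exceeded 1.96 scanner errors. In a bulk sample, fewer cells of a type and less RNA per cell cannot be told apart. The limma fit gave Bmf a difference of -2.01 with an SE of 1.25 (unadjusted p = 0.184, adjusted p = 0.884).

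Bcl2l11 encodes Bim, a BH3-only protein that binds all the main survival members. Its levels were -2.40, -2.01 and -1.65 on the 3 h control, low and high dose arrays. The 48 h arrays had -1.70 at high dose and -2.88 in the control. All 3 doxycycline arrays lay above both controls, by at least 0.39, a gap within 1.96 scanner errors. Bcl2l11 was 2.27-fold higher at high dose than in the control at 48 h, a difference of 1.18 ± 0.22 (scanner error), and the 3 h difference was 0.75. With normexp background correction the 48 h difference was 0.88, and the call was lost. The 48 h control was also the lowest array, 0.48 below the 3 h control and beyond 1.96 scanner errors. The limma fit gave 0.96 with an SE of 0.369 (unadjusted p = 0.0594, adjusted p = 0.884).

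Bbc3 encodes Puma, a BH3-only protein and a classic transcriptional target of p53. Its levels were 0.85, 0.34 and -0.20 on the 3 h control, low and high dose arrays. The 48 h levels were -0.13 at high dose and 0.64 in the control. Both controls lay above all 3 doxycycline arrays, by at least 0.29, a gap within 1.96 scanner errors, and the 2 high dose arrays were the lowest, within scanner error of each other. At 3 h high dose Bbc3 was 2.07-fold lower than in the control, a difference of -1.05. The difference was -0.77 at 48 h high dose and -0.51 at 3 h low dose, both short of 2-fold.

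Pmaip1 encodes Noxa, a BH3-only protein that binds Mcl1 and is another p53 target. Its levels were -2.90, -1.82 and -1.57 on the 3 h control, low and high dose arrays. At 48 h its level was -2.14 at high dose and -2.45 in the control. Pmaip1 was higher than the 3 h control at both doses, 2.11-fold at low dose (1.08) and 2.52-fold at high dose (1.33 ± 0.22, scanner error). With normexp background correction these differences were 0.75 and 0.93, and both calls were lost. Those doses differed from each other by 0.26, within 1.96 scanner errors. At 48 h the high dose array exceeded the control by 0.31, within 1.96 scanner errors. All 3 doxycycline arrays lay above both controls, with a gap of 0.31 between the lowest of them and the higher control, within 1.96 scanner errors.

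Bid links death receptors to mitochondria, because caspase-8 cleaves its protein into an active fragment. Its levels were 1.99, 1.35 and 1.41 on the 3 h control, low and high dose arrays. High dose at 48 h gave 1.42, against 2.07 in the 48 h control. The 5 arrays fell into the 3 doxycycline arrays below and both controls above, with a gap of 0.57 that exceeded 1.96 scanner errors. The difference from the control of the same time was -0.64 at 3 h low dose, -0.58 at 3 h high dose and -0.65 at 48 h high dose. None reached 2-fold, and within each side the arrays differed by less than 1.96 scanner errors. The limma fit gave -0.61 with an SE of 0.246 (unadjusted p = 0.0679, adjusted p = 0.884).

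Among the survival genes, Bcl2l1, which encodes Bcl-xL, had levels of 5.19, 5.23 and 4.89 on the 3 h control, low and high dose arrays. The 48 h levels were 4.43 at high dose and 5.01 in the control. The 48 h high dose array was the lowest, and 0.46 below the next array, beyond 1.96 scanner errors. The difference of -0.58 at 48 h was short of 2-fold. A dimmer second probe of Bcl2l1 gave -0.61, -0.64 and -0.66 on the 3 h control, low and high dose arrays, and -1.28 at 48 h high dose against -0.90 in the 48 h control. It too was lowest on the 48 h high dose array.

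Mcl1 encodes a short-lived survival protein. Its brighter probe had levels of 4.003, 4.31 and 4.03 on the 3 h control, low and high dose arrays, and at 48 h 3.62 at high dose and 3.85 in the control. With the arrays sorted by level, neighbouring arrays differed by less than 1.96 scanner errors. On this probe the 48 h high dose array differed from the 3 h high dose array by -0.41, beyond 1.96 scanner errors. Its dimmer probe had levels of 0.75, 1.04 and 1.18 at 3 h control, low and high dose, and 1.24 at 48 h high dose against 0.58 in the 48 h control. At 48 h the probes therefore disagreed in direction, with -0.22 on the brighter and 0.66 on the dimmer, and no direction is given for Mcl1.

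**Figure D2:**
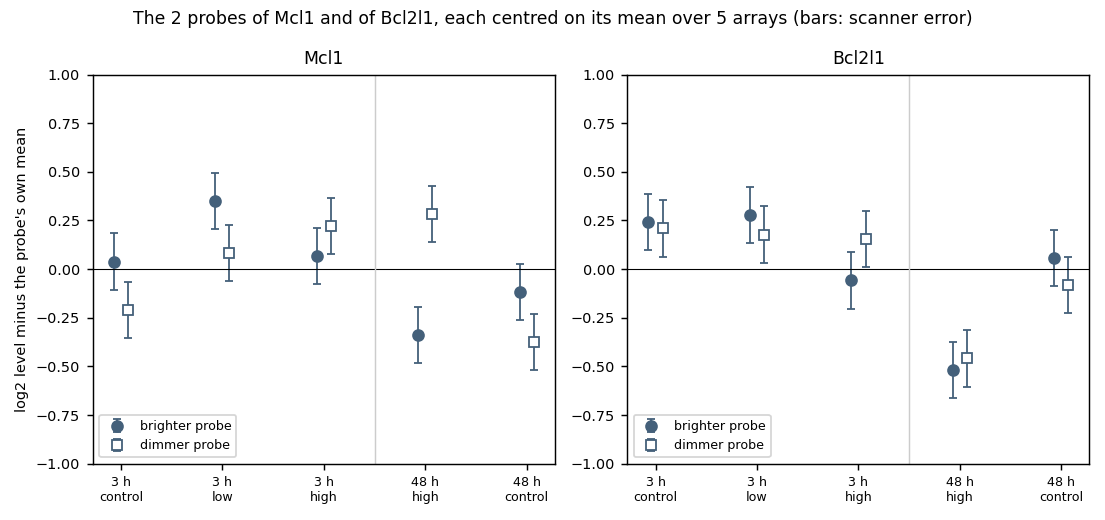
Log2 level of both probes of Mcl1 and of Bcl2l1, each minus its own mean over the 5 arrays, with bars for the scanner error. The Mcl1 probes lie on opposite sides of their means on the 48 h high dose array, while both Bcl2l1 probes are lowest there.

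Bcl2 itself, the founding survival gene, had levels of -1.52, -0.96 and -1.20 on the 3 h control, low and high dose arrays. High dose at 48 h gave -1.25, against -1.52 in the 48 h control. The controls were the lowest arrays, but the gap of 0.27 between them and the doxycycline arrays was within 1.96 scanner errors.

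The effectors differed little. Bax had levels of 3.57, 3.47 and 3.48 on the 3 h control, low and high dose arrays, and 3.80 at 48 h high dose against 3.39 in the 48 h control. Bak1 had levels of 0.63, 0.66 and 0.61 on the 3 h control, low and high dose arrays, and 0.64 at 48 h high dose against 0.57 in the 48 h control. The largest difference between dose and control of the same time was 0.42 for Bax at 48 h and 0.07 for Bak1.

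Counted by comparison, 2 of 10 members were called at 3 h low dose against control (Bmf and Pmaip1 higher), where 1.37% of 14062 genes were called. At 3 h high dose against control 2 were called (Pmaip1 higher, Bbc3 lower), where 3.30% of 14005 genes were called. At 3 h high against low dose 0 members were called, and 2.18% of 14349 genes. At 48 h high dose against control 2 were called (Bcl2l11 higher, Bmf lower), which is the same share as the 20.0% of all genes. Between the high dose arrays, 48 h against 3 h, only Bmf was called, with 17.6% of 13772 genes. Between the controls, 48 h against 3 h, 0 members were called, with 3.87% of 14018 genes. Both dose comparisons against the control at 3 h, and the comparison of the controls, share the 3 h control array. The median difference of the members was 0.17, 0.00 and -0.08 at 3 h low, 3 h high and 48 h high dose against the control of the same time, beside 0.02, -0.01 and 0.05 over all genes.

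**Figure D3:**
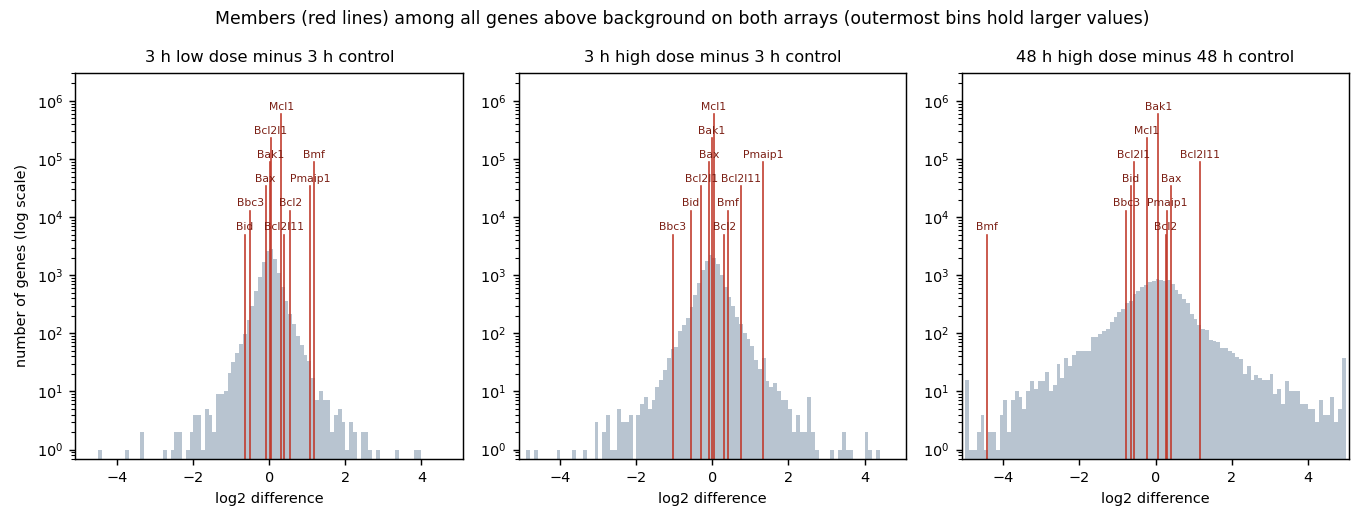
Number of genes (log scale) by log2 difference between dose and control of the same time, with red lines at the members. At 48 h the spread of all genes is wide and Bmf, at -4.43, lies near its lower end.

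Each dose array was also set against the control of the other time. At 3 h high dose against the 48 h control, where 5.05% of genes were called, Bcl2l11 was called higher (1.23), while Pmaip1 differed by 0.88, Bbc3 by -0.83 and Bmf by -0.02. At 3 h low dose against the 48 h control, where 5.34% of genes were called, 0 members were called, and Bmf differed by 0.74 and Pmaip1 by 0.63. At 48 h high dose against the 3 h control, where 18.3% of genes were called, Bmf alone was called, 16.0-fold lower (-4.00). Bmf at 48 h high dose was thus the only member call that held against both controls. The other calls against a control were each made with 1 control array and not with the other: those of Bmf and Pmaip1 at 3 h low dose, Pmaip1 and Bbc3 at 3 h high dose and Bcl2l11 at 48 h high dose with the control of the same time, and that of Bcl2l11 at 3 h high dose with the 48 h control.

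**Figure D4:**
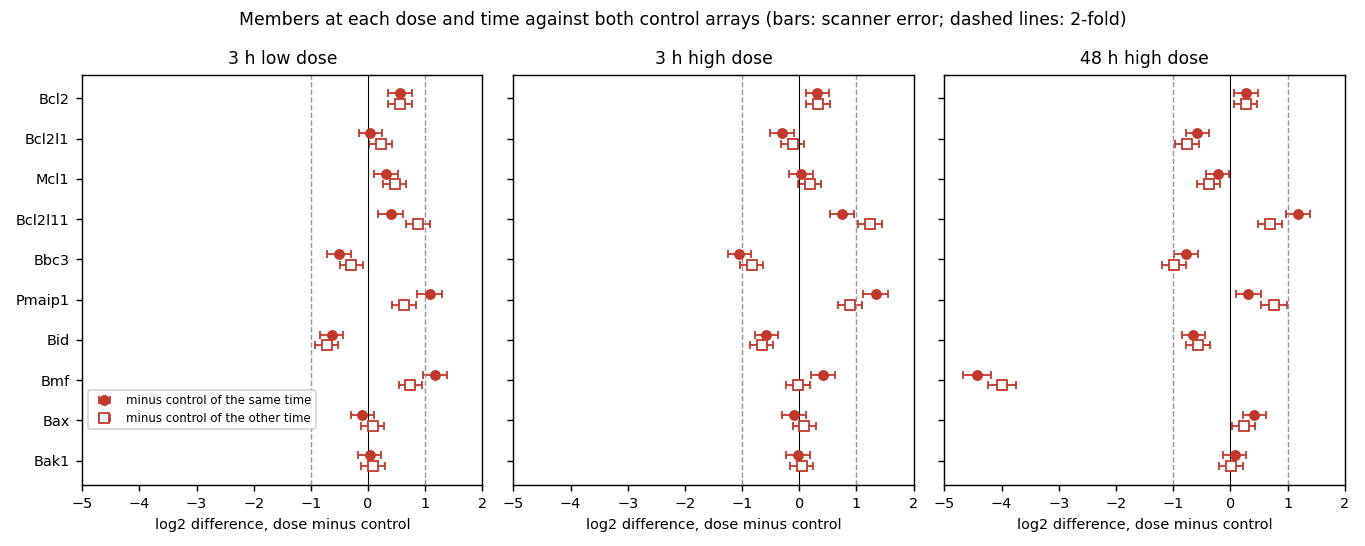
Log2 difference of each member at each dose and time from the control of the same time (filled) and of the other time (open), with bars for the scanner error and dashed lines at 2-fold. Bbc3 and Bid lie left of 0, and Bcl2, Bcl2l11 and Pmaip1 right of 0, for both controls in all panels.

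Without a threshold of size, 5 of 10 members had all 3 doxycycline arrays on 1 side of both controls. Bcl2, Bcl2l11 and Pmaip1 were higher on all 3, and Bid and Bbc3 were lower on all 3. Of these 5, the gap between the sides exceeded 1.96 scanner errors for Bid alone. Whatever the size of the gap, all 3 doxycycline arrays lay on 1 side of both controls for 26.0% of 13472 genes, 1901 higher and 1605 lower. The BH3-only genes thus lay on both sides, with Bcl2l11 and Pmaip1 above and Bbc3 and Bid below.

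Other genes of the pathway were taken from lists chosen by function. Of 11 measured other Bcl2 family genes, Bok was 2.25-fold higher at 48 h high dose, with levels of -0.20 at high dose and -1.37 in the control. At 3 h Bok had levels of -1.14, -0.22 and -0.35 at control, low and high dose. It was thus 1.90-fold higher at low and 1.73-fold higher at high dose, both short of 2-fold. Against the 3 h control, 0 genes of that list were called at 48 h high dose, so the call of Bok depends on the control used. Bcl2l14 had levels of -3.81, -1.31 and -1.61 on the 3 h control, low and high dose arrays, so it was 5.68-fold higher at low and 4.62-fold higher at high dose. At 48 h Bcl2l14 was not higher, with levels of -4.72 at high dose and -4.35 in the control. Bok and Bcl2l14 were the only genes of that list called between a dose and the control of the same time. The list's median difference was 0.06, 0.05 and 0.03 at 3 h low, 3 h high and 48 h high dose.

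Downstream of mitochondria, 17 genes of the death machinery were measured, and 0 were called at 3 h at either dose. Of all genes, only 1.37% were called at 3 h low dose and 3.30% at 3 h high dose, so 0 of 17 is near that share. The list's median difference was -0.06 at 3 h high dose and 0.10 at 48 h high dose. Of 7 measured inhibitors of apoptosis, Birc5, which encodes survivin and is also a cell division gene, was 53.4-fold higher at 48 h high dose, with levels of 4.58 at high dose and -1.16 in the control. On the same arrays Birc3 was 2.59-fold and Naip2 2.06-fold lower at high dose. The Naip2 call depends on the control used. Naip2 was 2.08-fold higher in the 48 h control than in the 3 h control, with levels of -3.11 and -4.16. Its level at 48 h high dose, -4.15, was close to that of the 3 h control. Survivin differed together with the proliferation genes, of which Mki67, Ccna2 and Rrm2 differed by 6.86, 6.26 and 5.90, and at 3 h 0 of the 11 measured proliferation genes were called at either dose.

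Of 14 measured death receptor genes, 0 were called at 3 h, beside 1.37% of all genes at low dose and 3.30% at high dose. At 48 h high dose Fas, a death receptor and p53 target, was 6.73-fold lower, with levels of -4.13 at high dose and -1.38 in the control. The list held 3 genes that were higher there, among them Tnfrsf21 (1.57) and Mlkl, the pore protein of necroptosis (1.34). Of 18 measured p53 targets, Gadd45a was 3.15-fold higher at 3 h high dose and 3.50-fold higher at 48 h high dose. Its level at 3 h high dose, 4.60, was just short of 2-fold above that of the 48 h control, 3.61. Btg2 was 2.04-fold higher at 3 h high dose, and at 48 h high dose Trp53inp1 was 3.70-fold lower. The p53 target list had a median difference of -0.08 at 3 h high dose and -0.23 at 48 h high dose.

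Among 14 measured transcription factors and regulators upstream of the family, Ddit3, a stress factor that can induce Bcl2l11, was lower at high dose than in the control of the same time. Its levels were 2.12, 1.75 and 1.11 on the 3 h control, low and high dose arrays, and 0.42 at 48 h high dose against 1.66 in the 48 h control. The 3 h high dose array was 2.02-fold below the 3 h control, but less than 2-fold below the 48 h control. At 48 h high dose Jun was 5.32-fold lower and E2f1, a cell cycle factor, 3.01-fold higher. Of 10 measured genes that mark, degrade or tether Mcl1, Bim or Bmf, 0 were called in any of the comparisons between a dose and the control of the same time. In these comparisons 1.37%, 3.30% and 20.0% of all genes were called, at 3 h low, 3 h high and 48 h high dose.

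**Figure D5:**
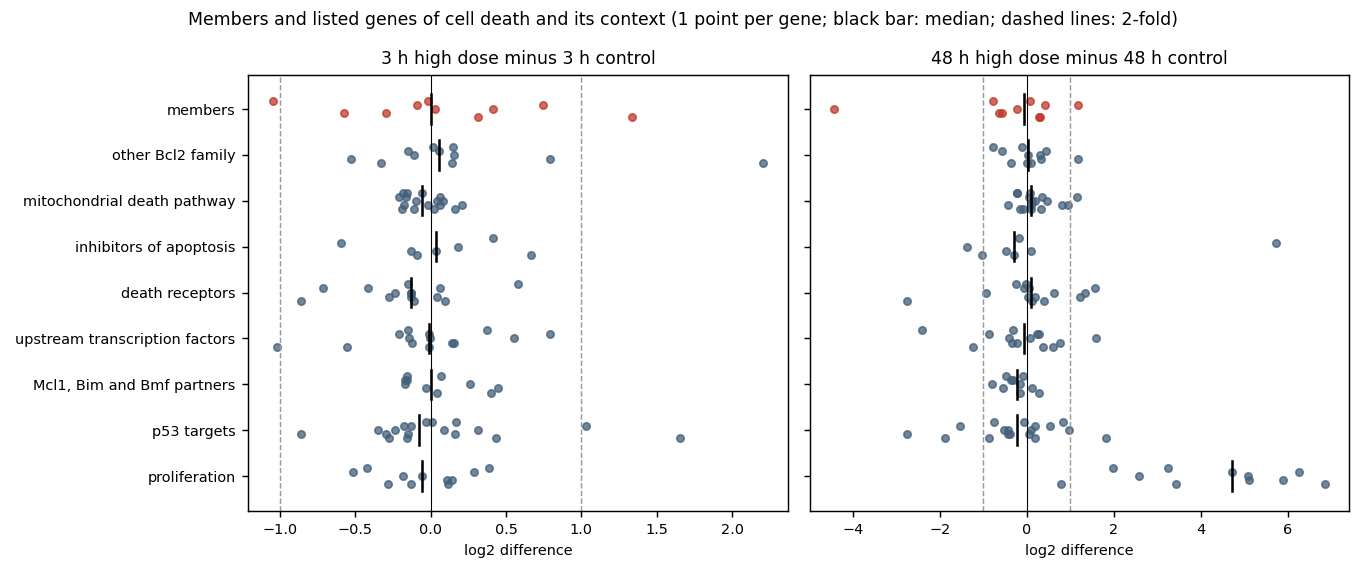
Log2 difference of each measured gene at 3 h and 48 h high dose from the control of the same time, by list, with a black bar at the median and dashed lines at 2-fold. At 48 h the proliferation list has a median of 4.72. The medians of the members and the other lists run from -0.29 (inhibitors of apoptosis) to 0.10 (mitochondrial death pathway).

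For the 4 members that spanned at least 1 on the log2 scale, the 2 genes with the most similar profile over the 5 arrays were listed, by the root mean square distance between centred levels among 13472 genes. Pmaip1 was closest to Zswim6 (0.056) and Vegfc, a lymphatic growth factor (0.060). Bbc3 was closest to Parp3 (0.070) and Pfkfb3, a regulator of glycolysis (0.077). Bcl2l11 was closest to the olfactory receptor Olfr103 (0.105) and Etv5, an ETS transcription factor (0.121). Vegfc and Olfr103 were dim, with highest levels of -3.9 and -3.0. Every gene has a nearest profile, and these distances were not tested. Bmf was closest to Scx, a tendon transcription factor (0.354), and the secreted semaphorin Sema3c (0.356). Scx had levels of 0.29, 1.83 and 1.28 on the 3 h control, low and high dose arrays, and -2.90 at 48 h high dose against 0.56 in the 48 h control.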

How the data were processed

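Total RNA of 5 cultures was measured on 1-colour Agilent arrays that lie on 1 slide and share 1 scan, so scan and slide do not separate groups. Per the file headers, the deposited intensity of each spot was background-subtracted and detrended by the authors' Agilent Feature Extraction software, which the submitters' processing notes give as version 10.7.3.1. The series' value table, whose scale is not stated, matched that processed signal and was an alternative; the samples' column medians were 38.3, 32.5, 31.9, 23.9 and 37.7 for the 3 h arrays (control, low, high) and then the 48 h arrays (high, control).

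Control and outlier spots were left out. Processed signals were divided by the array's 75th percentile (725, 585, 556, 420 and 649 in the same order) and taken to log2, spots of a probe were averaged, and the brightest probe stood for a gene. RefSeq accessions named 26413 of 55681 probes, 0 probes had several symbols and 29268 had none, giving 20016 genes. The background flag of a probe was that of a share of at least 0.5 of its spots. With 1 array per group there is no replicate spread and p-values between 2 arrays were not computed, so a difference of 1 on the log2 scale on probes above background on both arrays was a call. The scanner error of a spot is the software's error estimate for it, and a gap is called beyond it past 1.96 errors. For the brighter Bcl2l1 probe it was 0.144 on every array, so it does not come from a spread measured between spots. Probes with many spots gave a smaller median SD of a difference, 0.0884 to 0.0921. limma 3.58.1 (R 4.3.3) was fitted additively for time and high dose on 4 arrays, with an intensity trend and Benjamini-Hochberg adjustment over all genes above background on at least 2 arrays. The fit was tested on simulated data with the same change at both times. That test does not show how the fit performs where the times differ. The number of arrays limits the precision.

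The members, lists and comparisons were chosen with earlier results of these data known. Named were all members, Fos, at most 3 genes of each list and comparison with the largest called differences, and for members spanning at least 1 the 2 nearest profiles. Of the lists, 2 family genes and 1 macrophage marker have no named probe. A result of 1 listed gene is not reported here. Alternatives were normexp on median signals (chosen after seeing the files, because they hold no mean signal), median centring, quantile normalization, other filters, the mean of all probes and the other time's control.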

Additional observations from a re-analysis of the deposited data

Results flagged for a closer look

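Bmf differed in opposite directions from its own control at the 2 times: high dose minus control was -4.43 at 48 h and 0.42 at 3 h. The change of that difference, 48 h minus 3 h, was -4.85 on the log2 scale with a scanner error of 0.314. The 2 control arrays differed by 0.44 (48 h minus 3 h), and against the 48 h control the 3 h high dose array differed by -0.02, so the opposite direction at 3 h depends on the control used. With 1 array in each group, this difference between times was not tested.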

How the results depend on the processing

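Of the alternatives, normexp background correction on median signals and the control of the other time changed the number of members called; median centring, quantile normalization, both other filters on dim spots, the mean of all probes and the deposited value table left each count within 1.5 times. With normexp, 1 member was called at 3 h high dose (Bbc3), 1 at 3 h low dose (Bmf) and 1 at 48 h high dose (Bmf, -2.99), so that Pmaip1 at both 3 h doses and Bcl2l11 at 48 h lost their calls. With the 48 h control array as control, 1 was called at 3 h high dose (Bcl2l11) and 0 at 3 h low dose, and with the 3 h control array 1 at 48 h high dose (Bmf); the cause was not tested. With the mean of both probes, Mcl1 at 48 h high dose turned to 0.22. The count of members on 1 side of both controls was chosen after seeing the data; it was 5 or 6 under every other scaling or filter and 5 to 7 with 1 array left out, when 35.1% to 52.3% of all genes qualified. Median centring moved the median of all genes to -0.13 at 3 h high dose and to -0.12 between the controls, and the share of calls that were higher to 40.7%, 46.8% and 50.1% at 3 h high dose, 3 h low dose and between the controls, against 56.1%, 57.5% and 64.8%. For 48 h high dose against the 3 h control it moved the median to -0.07. Over all genes, normexp called 217 at 3 h high dose, 97 at 3 h low dose, 127 between the doses, 287 between the controls, 347 at 3 h high dose and 380 at 3 h low dose against the 48 h control; the main counts were 462, 193, 313, 542, 724 and 766. With no filter these were 1359, 819, 1228, 1361, 1677 and 1721, and at 48 h high dose 4472 against the 48 h control (main 2750), 4100 against the 3 h control (main 2480) and 4008 against 3 h high dose (main 2417). limma called 4 genes with no filter and 0 otherwise, and no member in any setting. Normexp on mean signals was not run. No fit with a replicate block was made, since each group has 1 array and the labels pair none; the limma fit holds time as a term. All member probes were above background on all 5 arrays, and the scanner error of a member's difference reached 0.239, for Bmf at 48 h.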
